A study of Homo sapiens with 6 samples.

Results

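SLPI, PI3 and SERPINA1 encode secreted proteins that inhibit serine proteases, and they are 3 of the 11078 genes in the RNA-seq table of a knockdown experiment in T24 cells. T24 is an established human bladder cancer line. The shBLACAT3 cells (labelled BLACAT3 knockdown) carried a short hairpin RNA against BLACAT3, a long noncoding RNA of the gene LINC01535, and the shControl cells (labelled WT) carried a control hairpin. Cells of both groups received their hairpin by lentivirus and were selected with puromycin as stable strains, and the labels do not say whether a strain was 1 clone or a pool, or how many hairpin sequences were used. Each group had 3 libraries, 6 in all, numbered as replicates in their titles. The labels do not name separate cultures, and p-values below measure library-to-library spread, which could be technical. The 3 genes were chosen by name with their difference between shBLACAT3 and shControl cells already known, so their values in this contrast are given as a description and carry no test.

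SLPI (secretory leukocyte protease inhibitor) and PI3 (elafin) are small inhibitors built from the WAP domain, the cysteine-rich fold of whey acidic protein, and epithelia release them onto mucosal surfaces. They block neutrophil elastase; SLPI also blocks cathepsin G, and elafin also blocks proteinase 3. SERPINA1 encodes alpha-1-antitrypsin, a larger inhibitor of the serpin class that traps elastase in a covalent complex, and the liver is its main source in the body. Signals of inflammation are known to raise all of these genes in epithelial cells.

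Values are FPKM (fragments per kilobase of transcript, scaled to library size), and the test covered the 10008 genes whose mean across the 6 libraries reached 1 FPKM. The values of the table summed to between 211958 and 226953 FPKM per library, and the read depth behind them is unknown. With no counts behind it, an exact 0 may be a failed estimate and is given as listed, and no mean ± SD is given for a group that holds one. Of 16 urothelial markers 5 were among the rows analysed here (KRT7, KRT8, KRT18, PPARG and FOXA1; the uroplakins, KRT5, KRT20 and GATA3 were not), with summed levels of 124 to 142 FPKM in shBLACAT3 libraries and 180 to 211 FPKM in shControl libraries. KRT8 and KRT18, keratins of simple epithelia, fell (limma adjusted p 0.00039 and 0.022), with the KRT18 call lost when any 1 library other than shBLACAT3 replicate 3 or shControl replicate 2 was left out, and the other markers did not pass. KRT7 was at 31.8, 28.6 and 35.5 FPKM in shBLACAT3 replicates 1, 2 and 3 and at 24.2, 22.2 and 13.6 FPKM in shControl replicates 1, 2 and 3, with a positive log2 difference of 0.69 (limma adjusted p 0.097), PPARG had a difference of 0.26 and FOXA1 one of -0.29. The part of these markers in the results below was not tested. Of the markers of other cells, 0 of 10 leukocyte, 0 of 8 hepatocyte and 0 of 5 endothelial genes were among these rows. The level of the targeted RNA was not analysed here, so the group labels were not checked against it.

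SLPI had the highest level of the 3 genes in shControl cells and was listed at or close to 0 in shBLACAT3 cells. It (ENSG00000124107.5_2) was listed at 0, 0 and 0.406 FPKM in shBLACAT3 replicates 1, 2 and 3, against 17.3, 13.6 and 9.8 FPKM in shControl replicates 1, 2 and 3. The groups did not overlap, and the lowest shControl library stood 24.1-fold above the highest shBLACAT3 library. The mean in shControl cells was 13.6 ± 3.73 FPKM (SD, n = 3), a level exceeded by 27.4% of the listed genes. On the log2(FPKM + 1) scale, which understates the change of low genes, SLPI differed by -3.67 between shBLACAT3 and shControl cells, the 10th lowest value among the 10008 tested genes. SLPI reached the tested level only through its shControl values and was chosen by this difference, so its place is a description. In RNA from whole cultures, fewer cells making a transcript and less of it per cell cannot be told apart.

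PI3 (ENSG00000124102.4_2) was a gene of low level even in shControl cells. It was listed at 0 in all 3 shBLACAT3 libraries, against 1.32, 1.2 and 2.13 FPKM in shControl replicates 1, 2 and 3, a mean of 1.55 ± 0.505 FPKM (SD, n = 3). No fold change is given against a group listed at 0, and the mean over the 6 libraries, 0.774 FPKM, kept PI3 out of the tested genes. Among the 11081 rows 19 were listed at 0 in every shBLACAT3 library, and 16 of these were above 0 in every shControl library. The reverse, 0 in every shControl library and above 0 in every shBLACAT3 library, was found for 0 rows.

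SERPINA1 (ENSG00000197249.13_3) was listed above 0 in every library. It had 0.0312, 0.0734 and 0.0482 FPKM in shBLACAT3 replicates 1, 2 and 3, against 3.32, 3.07 and 1.92 FPKM in shControl replicates 1, 2 and 3. The means were 0.0509 ± 0.0213 FPKM in shBLACAT3 cells and 2.77 ± 0.751 FPKM in shControl cells (SD, n = 3 each), and the lowest shControl library stood 26.1-fold above the highest shBLACAT3 library. The shBLACAT3 values lie close to 0 at unknown read depth, so the size of this gap, like that of SLPI, is uncertain. The difference on the log2(FPKM + 1) scale was -1.82, the 32nd lowest of the tested genes. Like SLPI, SERPINA1 reached the tested level only through its shControl values, so its place is a description.

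**Figure D1:**
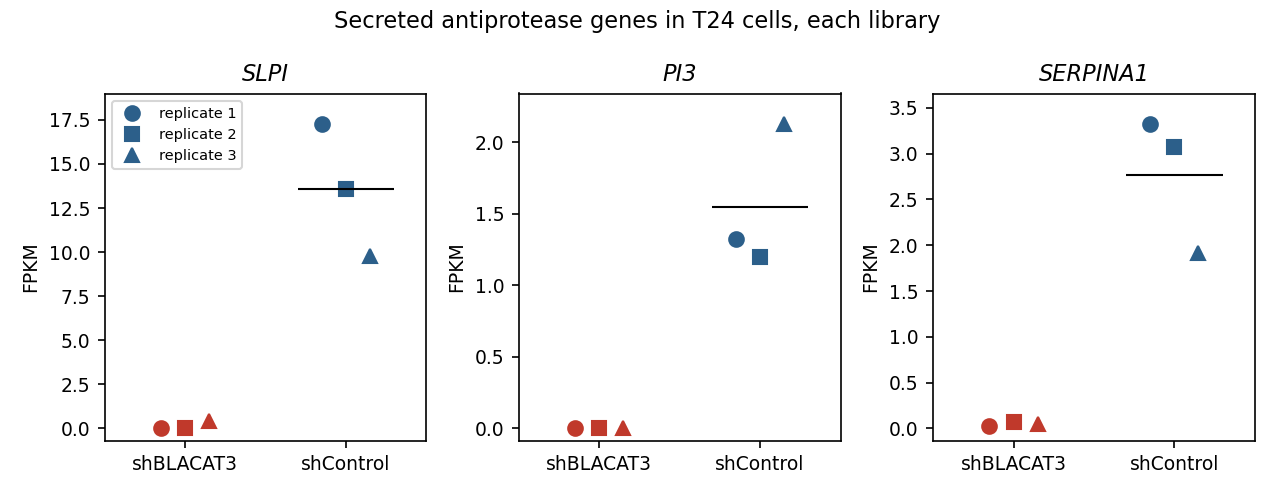
FPKM of SLPI, PI3 and SERPINA1 (vertical axes, linear, a separate scale for each gene) in the 3 shBLACAT3 and the 3 shControl libraries, with marker shapes for the replicate number and a line at the shControl mean. The shBLACAT3 points lie at or close to 0, with the highest at 0.406 FPKM for SLPI, and in each panel all shControl points lie above them.

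The groups did not overlap for any of the 3 genes, and among all tested genes 32.8% had groups that did not overlap, 18.6% with shBLACAT3 lower. In 38 of the 11078 genes (0.343%), SLPI, PI3 and SERPINA1 among them, the highest shBLACAT3 value was under 5% of the lowest shControl value. The opposite gap, with every shControl value under 5% of the lowest shBLACAT3 value, was found in 0 genes. These counts come from the contrast by which the 3 genes were chosen and are a description.

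Within the shControl group the 3 genes varied to a like degree but not in the same libraries. The highest shControl value exceeded the lowest 1.76-fold for SLPI, 1.78-fold for PI3 and 1.74-fold for SERPINA1. Replicate 3 was the lowest shControl library for SLPI and SERPINA1 and the highest for PI3. The ratio of SLPI to SERPINA1 was 5.2, 4.42 and 5.12 in shControl replicates 1, 2 and 3, while the ratio of SLPI to PI3 was 13.1, 11.3 and 4.61. With 3 libraries these patterns are descriptions of single libraries.

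SLPI and PI3 lie close together on chromosome 20, with the semenogelin genes SEMG1 and SEMG2 as the protein-coding genes between them, in a cluster of WAP domain genes, while SERPINA1 lies in a serpin cluster on chromosome 14. The sequence before a gene's start can hold sites that control it, and the RefSeq entry of SERPINA1 lists several starts. The SERPINA1 stretch shown for reference lies ahead of the first exon annotated in GENCODE 29, which need not be a RefSeq start. It is from RefSeq, build GRCh38.p14, minus strand, chr14:94390694-94390885, written 5′ to 3′ in lower case with no base marked.
SERPINA1: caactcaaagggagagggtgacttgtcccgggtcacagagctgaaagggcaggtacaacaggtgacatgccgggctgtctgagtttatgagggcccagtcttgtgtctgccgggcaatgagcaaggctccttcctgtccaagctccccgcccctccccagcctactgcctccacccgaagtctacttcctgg
This stretch of 192 bases was searched on both strands for 5 motifs. An NF-kB site, an interferon response element (GAAANNGAA), an AP-1 site (TGANTCA), a STAT site (TTCNNNGAA) and a C/EBP site (TTNNGNAA) were each found 0 times. In the first 192 bases of 35116 promoter windows the NF-kB site was present in 7.65%, the interferon response element in 5.33%, the AP-1 site in 5.03%, the STAT site in 5.27% and the C/EBP site in 28.6%. The first bases of a window are its most upstream ones, whereas the SERPINA1 stretch ends directly before its first exon in GENCODE 29. These shares are therefore not from a like position. No match says only that these letters are not in this window. The FPKM values are per gene and do not tell which start was used.

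Protein-coding neighbours were taken 5 on each side in GENCODE 29 order. Around SLPI and PI3 the neighbours with values did not move as a block. Around SERPINA1 those with values, IFI27 and IFI27L2, were both lower in shBLACAT3 cells. SDC4, a heparan sulfate proteoglycan of the cell surface that lies 3 genes from SLPI, had 44.8, 40.0 and 45.7 FPKM in shBLACAT3 replicates 1, 2 and 3 and 121, 111 and 109 FPKM in shControl replicates 1, 2 and 3. It fell, with a log2 difference of -1.37 (SE 0.07, limma adjusted p 0.00015). The next gene, SYS1, a Golgi trafficking protein, stood at 6.36 ± 0.464 FPKM in shBLACAT3 cells and 5.84 ± 0.659 in shControl cells (SD, n = 3 each) and did not pass (limma adjusted p 0.53). On the other side, TOMM34, a mitochondrial import cochaperone, and STK4, a Hippo pathway kinase, did not pass either (limma adjusted p 0.48 and 0.73). In the SERPINA1 region IFI27L2, a member of the interferon-induced IFI27 family, fell to 0.687 ± 0.0772 FPKM in shBLACAT3 cells, against 1.9 ± 0.198 in shControl cells (log2 difference -0.78, SE 0.09, limma adjusted p 0.0028). IFI27L2 reached the tested level only through its shControl values, so its call is given as a description. IFI27 itself stood at 0.1, 0.0397 and 0.112 FPKM in shBLACAT3 replicates 1, 2 and 3 and at 1.47, 0.754 and 0.897 FPKM in shControl replicates 1, 2 and 3, under the level needed for the test. SYS1-DBNDD2, a readthrough of SYS1 whose values depend on how shared fragments were assigned, did not pass (limma adjusted p 0.95), and the other neighbours were not analysed here.

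Some of the other serpins tested fell as well. This list and those below were drawn up with earlier results of these data known. Of 33 serpins in the list 6 had values and 5 were tested: 3 fell, 0 rose and 2 did not pass, a share of 60% lower, where 9.37% of all tested genes passed, 6.8% lower and 2.57% higher. Their median log2 difference was -0.59, against -0.0025 for all tested genes. SERPINE2, which encodes protease nexin, an inhibitor of thrombin and urokinase, had 6.57, 10.3 and 7.5 FPKM in shBLACAT3 replicates 1, 2 and 3 and 32.8, 29.2 and 28.0 FPKM in shControl replicates 1, 2 and 3. It fell by 1.78 on the log2 scale (SE 0.15, limma adjusted p 0.00098). SERPINB1, an intracellular inhibitor of neutrophil proteases that has elastase as a target in common with the 3 members, had 3.73, 4.28 and 4.28 FPKM in shBLACAT3 replicates 1, 2 and 3 and 11.8, 11.0 and 10.7 FPKM in shControl replicates 1, 2 and 3. Its log2 difference was -1.25 (SE 0.08, limma adjusted p 0.00033). SERPINI1, neuroserpin, fell by 0.59 (limma adjusted p 0.027), a call that was lost without shBLACAT3 replicate 1 or any 1 shControl library. SERPINB6 and SERPINB8, intracellular serpins, had log2 differences of 0.15 and -0.08 and did not pass. SERPINB7 was listed at 0.246, 0 and 0.24 FPKM in shBLACAT3 replicates 1, 2 and 3 and at 1.27, 1.17 and 1.0 FPKM in shControl replicates 1, 2 and 3, below the level tested. Of the 16 other WAP domain genes in the list 0 had values analysed here, so SLPI and PI3 could not be set beside a relative of their own family.

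Inhibitors of other classes changed by less than 1 on the log2 scale. Of 36 in the list 10 were tested: 3 fell, 1 rose and 6 did not pass, with a median log2 difference of -0.29. That is 30% lower and 10% higher, against 6.8% and 2.57% of all tested genes. CST1 and CST3, cystatins that block cysteine proteases, fell by 0.77 and 0.37 (limma adjusted p 0.031 and 0.028), and TIMP1, an inhibitor of matrix metalloproteases, fell to 84.7 ± 9.35 FPKM in shBLACAT3 cells, against 114 ± 1.3 in shControl cells (SD, n = 3 each; limma adjusted p 0.027). CST1 had a mean of 0.63 FPKM in shBLACAT3 cells and 1.81 FPKM in shControl cells. It reached the tested level only through its shControl values, so its call and its place among the 3 are a description. TFPI, a Kunitz inhibitor of the tissue factor pathway, rose to 14.2 ± 2.52 FPKM in shBLACAT3 cells, against 8.72 ± 0.716 in shControl cells (log2 difference 0.63, SE 0.14, limma adjusted p 0.035). Without shBLACAT3 replicate 1, shControl replicate 1 or shControl replicate 3 the list held 0 lower and 0 higher genes, and without shControl replicate 2 it held 1 lower and 0 higher, with CST1 as the lower one. Without shBLACAT3 replicate 2 TFPI and CST1 lost their calls, so that TFPI passed in 1 of the 6 fits that left 1 library out. TFPI2, a related Kunitz inhibitor and the highest of the listed inhibitors in both groups, stood at 159 ± 5.09 FPKM in shBLACAT3 cells and 176 ± 7.44 in shControl cells (SD, n = 3 each) and did not pass (limma adjusted p 0.17). TIMP2, a further metalloprotease inhibitor, varied between libraries and did not pass (limma adjusted p 0.32; 0.025, higher, without shBLACAT3 replicate 2), with 27.0, 11.0 and 26.7 FPKM in shBLACAT3 replicates 1, 2 and 3 and 16.3, 11.4 and 11.3 FPKM in shControl replicates 1, 2 and 3.

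Set among the 19 inhibitor genes of these lists with values, the members changed place in the order of levels. SLPI ranked 17th by mean FPKM in shBLACAT3 cells and 9th in shControl cells, where its range overlapped those of CST3 above it and TIMP2 below it. SERPINA1 ranked 18th in shBLACAT3 cells and 15th in shControl cells, and PI3 ranked 19th in shBLACAT3 cells and 18th in shControl cells. The order of the members in shBLACAT3 cells rests on values listed at 0. SLPI stood above SERPINA1 there only through its 0.406 FPKM in replicate 3. In shControl cells the range of SERPINA1 overlapped that of its neighbours in the order, SERPINB8 and RECK, and the range of PI3 overlapped those of CST1 and SERPINB7. Leaving aside PI3, listed at 0 in every shBLACAT3 library, the highest shBLACAT3 value of SERPINA1 was 3.83% of its lowest shControl value and that of SLPI 4.14%, followed by SERPINB7 with 24.6%, SERPINE2 with 36.7% and SERPINB1 with 40.2%. The members were chosen with this gap known, so their place in this order is a description.

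**Figure D2:**
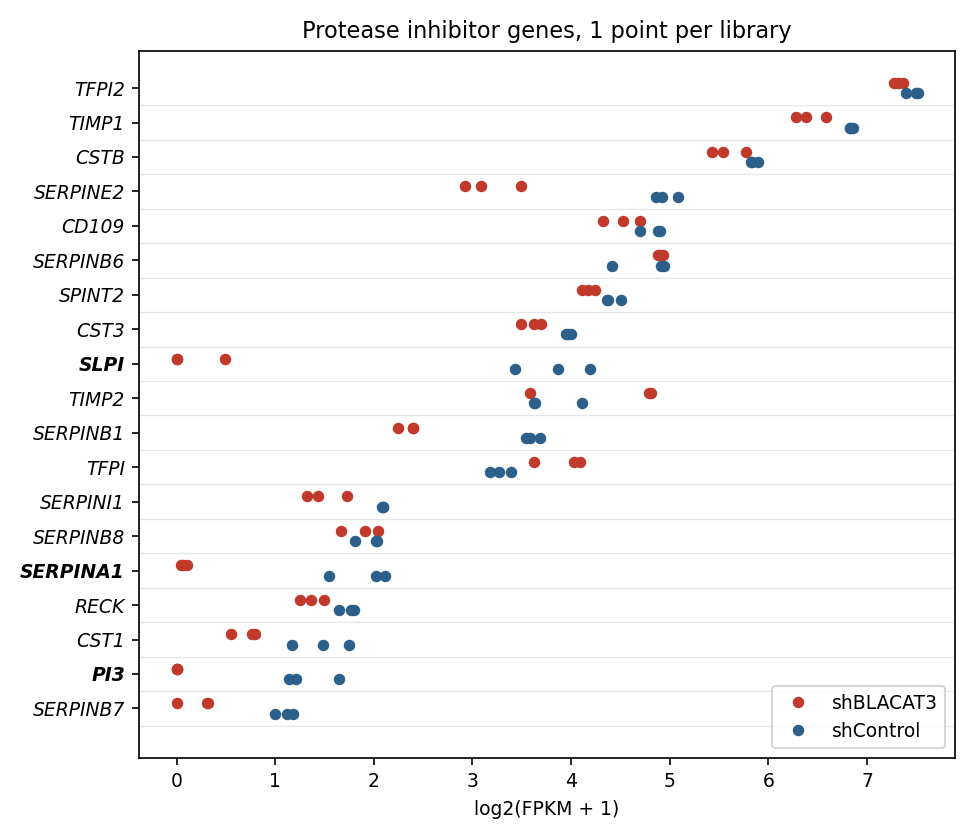
Levels of the 19 protease inhibitor genes with values, as log2(FPKM + 1) on the horizontal axis, 1 point per library, with shBLACAT3 points above shControl points in each line and genes ordered by shControl mean. SLPI (bold, as are PI3 and SERPINA1) has the widest gap on this scale, while TFPI2, CSTB and SPINT2, which did not pass, lie close together.

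Few serine proteases had values, and the neutrophil targets of the 3 inhibitors (the genes ELANE, CTSG and PRTN3) were not analysed here. Of 60 serine proteases in the list 10 had values and 6 were tested: 2 fell, 0 rose and 4 did not pass, with a median log2 difference of -0.74. The share lower was 33.3%, against 6.8% of all tested genes. PLAU, the urokinase that turns plasminogen into plasmin, had 103, 99.3 and 101 FPKM in shBLACAT3 replicates 1, 2 and 3 and 204, 195 and 191 FPKM in shControl replicates 1, 2 and 3, and fell by 0.95 (SE 0.05, limma adjusted p 0.00015). HTRA1, a secreted protease of the matrix, fell to 1.93 ± 0.486 FPKM in shBLACAT3 cells, against 4.97 ± 0.849 in shControl cells (SD, n = 3 each; limma adjusted p 0.011). PRSS23 jumped between libraries of a group, with 8.51, 45.1 and 9.75 FPKM in shBLACAT3 replicates 1, 2 and 3 and 55.6, 54.7 and 9.67 FPKM in shControl replicates 1, 2 and 3, and did not pass (limma adjusted p 0.52). The complement proteases CFB, C1R and C1S were below the level tested and were among the rows through their shControl values (each row has at least 0.501 FPKM in its higher group), so they are described without a test. CFB, factor B of the alternative complement pathway, was listed at 0, 0.023 and 0 FPKM in shBLACAT3 replicates 1, 2 and 3 and at 2.14, 1.75 and 1.33 FPKM in shControl replicates 1, 2 and 3.

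Partners of the WAP inhibitors changed in either direction. Of 12 in the list 8 were tested: 3 fell, 1 rose and 4 did not pass, with a median log2 difference of -0.29. That is 37.5% lower and 12.5% higher, against 6.8% and 2.57% of all tested genes. TGM2, a transglutaminase (enzymes of this family crosslink elafin to matrix proteins), had 53.5, 48.5 and 57 FPKM in shBLACAT3 replicates 1, 2 and 3 and 89.3, 85.2 and 82.3 FPKM in shControl replicates 1, 2 and 3. It fell by 0.68 (SE 0.07, limma adjusted p 0.0026). PLSCR4 and PLSCR1, phospholipid scramblases reported to bind SLPI, fell by 0.76 and 0.46 (limma adjusted p 0.0093 and 0.036), and the call of PLSCR1 was lost without any 1 library except shBLACAT3 replicate 2. FN1, fibronectin, a matrix protein to which elafin can be crosslinked, rose to 41.8 ± 1.23 FPKM in shBLACAT3 cells, against 30.8 ± 0.887 in shControl cells (SD, n = 3 each; limma adjusted p 0.0056). GRN, the precursor progranulin that SLPI shields from elastase, stood at 15.8, 11.5 and 13.2 FPKM in shBLACAT3 replicates 1, 2 and 3 and at 17.9, 15.1 and 15.9 FPKM in shControl replicates 1, 2 and 3 and did not pass (limma adjusted p 0.24).

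Genes that fold, export or dispose of alpha-1-antitrypsin in the endoplasmic reticulum mostly did not pass. Of 25 tested 5 fell, 0 rose and 20 did not pass, and the median log2 difference was -0.06. The share lower was 20%, against 6.8% of all tested genes. HSPA5, the chaperone BiP, had 214, 222 and 214 FPKM in shBLACAT3 replicates 1, 2 and 3 and 317, 315 and 311 FPKM in shControl replicates 1, 2 and 3 and fell by 0.53 (SE 0.05, limma adjusted p 0.0013). MAN1A1, a mannosidase that trims glycans of secreted proteins, fell to 0.864 ± 0.11 FPKM in shBLACAT3 cells, against 1.94 ± 0.157 in shControl cells (SD, n = 3 each; limma adjusted p 0.0059). MAN1A1 reached the tested level only through its shControl values, so its call and its place among the 5 are a description. CALR, a lectin chaperone, EDEM1, a lectin of glycoprotein disposal, and MCFD2, a cofactor of the export receptor LMAN1, fell by 0.48, 0.35 and 0.3 (limma adjusted p 0.015, 0.041 and 0.049). The count of lower genes was 2 without shControl replicate 1, 2 or 3 and 3 without shBLACAT3 replicate 1, and CALR, EDEM1 and MCFD2 each lost their call without any 1 shControl library. LMAN1, which carries alpha-1-antitrypsin out of the endoplasmic reticulum, stood at 35.5, 40.4 and 28.8 FPKM in shBLACAT3 replicates 1, 2 and 3 and at 35.9, 39.2 and 32.3 FPKM in shControl replicates 1, 2 and 3. The groups overlapped for LMAN1, with a log2 difference of -0.05 (SE 0.13).

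Among cytokines, receptors and transcription factors known to drive these inhibitor genes, calls went in both directions. Of 24 tested 7 fell, 1 rose and 16 did not pass, with a median log2 difference of -0.24. That is 29.2% lower and 4.17% higher, against 6.8% and 2.57% of all tested genes. IL6, the cytokine that drives the acute phase response and SERPINA1 in hepatocytes, had 6.85, 4.81 and 6.67 FPKM in shBLACAT3 replicates 1, 2 and 3 and 15, 14.7 and 15.8 FPKM in shControl replicates 1, 2 and 3. It fell by 1.19 (SE 0.13, limma adjusted p 0.0024). OSMR, the receptor of oncostatin M, another inducer of SERPINA1, fell to 18.5 ± 0.537 FPKM in shBLACAT3 cells, against 26.4 ± 0.289 in shControl cells (SD, n = 3 each; limma adjusted p 0.0032). SOCS3, a feedback inhibitor induced by this receptor family, fell by 0.65 (limma adjusted p 0.012). BCL3, a nuclear partner of NF-kB, fell to 1.67 ± 0.102 FPKM in shBLACAT3 cells, against 4.86 ± 0.234 in shControl cells, and IRF1, an interferon-induced factor, fell to 2.91 ± 0.136 FPKM, against 5.45 ± 0.465 in shControl cells (SD, n = 3 each; limma adjusted p 0.00039 and 0.004). IRAK2, a kinase of interleukin-1 signalling, and CEBPD, a factor of the acute phase response, fell by 0.5 and 0.6 (limma adjusted p 0.012 and 0.017), and both calls were lost without shControl replicate 1 or 3. MYD88, the adaptor of interleukin-1 and Toll-like receptors, rose: it had 7.62, 7.19 and 8.21 FPKM in shBLACAT3 replicates 1, 2 and 3 and 3.28, 3.18 and 3.45 FPKM in shControl replicates 1, 2 and 3 (log2 difference 1.01, SE 0.08, limma adjusted p 0.00074). CEBPB and STAT3, factors known to act on acute phase genes, had log2 differences of 0.08 and -0.15 and did not pass.

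**Figure D3:**
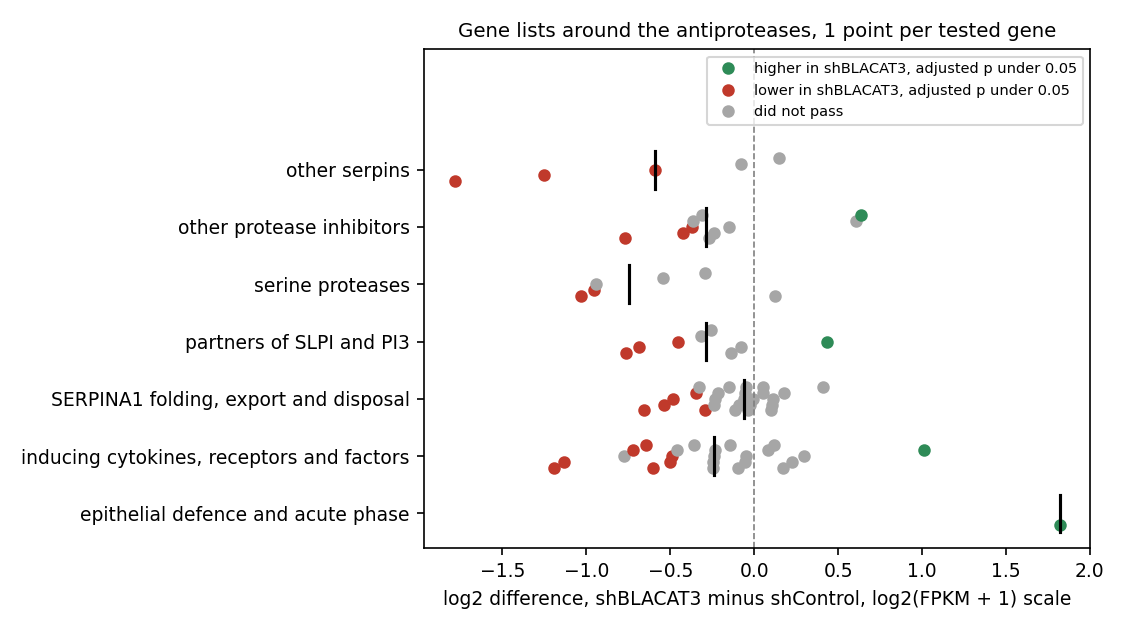
Log2 difference between shBLACAT3 and shControl cells on the log2(FPKM + 1) scale (horizontal axis), 1 point per tested gene of each list, coloured by limma's adjusted p and direction, with a bar at each list's median. The serpin list has its median at -0.59 and the list of SERPINA1 folding, export and disposal at -0.06.

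Few genes of epithelial defence and the acute phase, which are often induced together with SLPI and PI3, had values. Of 34 in the list 4 had values and 1, SAA1, was tested. SAA1, an acute phase apolipoprotein with the near-identical neighbour SAA2, rose: it had 16.5, 16.2 and 17.4 FPKM in shBLACAT3 replicates 1, 2 and 3 and 4.09, 4.02 and 3.9 FPKM in shControl replicates 1, 2 and 3 (log2 difference 1.82, SE 0.07, limma adjusted p 2.26e-05). The difference of SERPINA1, also an acute phase gene, had the opposite sign. DEFB103A, C3 and MUC1 were below the level tested, were among the rows through their shControl values and carry no test. DEFB103A, an antimicrobial beta-defensin with an identical copy, was listed at 0 in all 3 shBLACAT3 libraries and at 0.711, 1.37 and 0.841 FPKM in shControl replicates 1, 2 and 3.

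The genes with the nearest profiles were sought over the 6 libraries as those with the smallest root mean square difference from the member in log2(FPKM + 1), each gene centred on its own mean. For SLPI these were IFIT3, ISG15, OAS2 and RSAD2, antiviral genes induced by interferon, and IGFBP6, a secreted binding protein of insulin-like growth factors, at differences of 0.31, 0.33, 0.4, 0.41 and 0.42. IFIT3 had 4.75, 5.57 and 4.58 FPKM in shBLACAT3 replicates 1, 2 and 3 and 90.8, 87.5 and 85.0 FPKM in shControl replicates 1, 2 and 3. For PI3 they were ENHO, a peptide hormone gene, at 0.09, HLA-F, WARS1 and KLF4 at 0.14, 0.14 and 0.15, and HIP1 at 0.16. HLA-F encodes an MHC class I chain, WARS1 the tryptophan tRNA synthetase and KLF4 an epithelial transcription factor. ENHO had 0.281, 0.231 and 0.399 FPKM in shBLACAT3 replicates 1, 2 and 3 and 1.97, 1.65 and 2.56 FPKM in shControl replicates 1, 2 and 3, and like PI3 it was highest in shControl replicate 3. For SERPINA1 they were 2 genes listed by identifier alone at 0.09 and 0.13, IFNL2, a type III interferon, at 0.12, SCN3A, a sodium channel subunit, at 0.15, and RIGI, a sensor of viral RNA, at 0.15. IFNL2 was listed at 0 in all 3 shBLACAT3 libraries and at 3.98, 3.46 and 2.29 FPKM in shControl replicates 1, 2 and 3, and like SERPINA1 it was lowest of the shControl libraries in replicate 3. IFNL2 is nearly identical to IFNL3, so its reads may have been split between them. Most of this likeness lies in the gap between the groups, by which the members were chosen, and it is given as a description. Likeness within the shControl libraries also follows from picking the nearest profiles over the same 6 libraries. OAS2, RSAD2, ENHO, HLA-F, IFNL2, SCN3A and the 2 genes listed by identifier reached the tested level only through their shControl values.

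**Figure D4:**
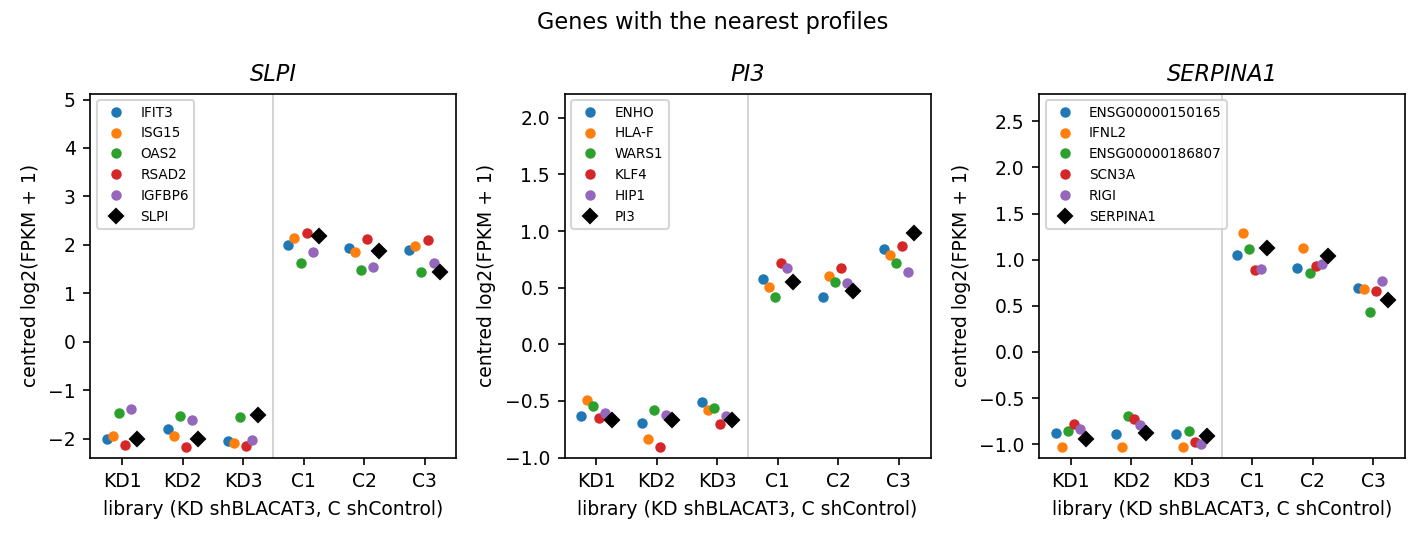
Centred log2(FPKM + 1) (vertical axes, a separate scale for each panel) of SLPI, PI3 and SERPINA1 (black diamonds) and of the 5 genes nearest to each (coloured circles) in the shBLACAT3 libraries (KD1 to KD3) and the shControl libraries (C1 to C3). In each panel the shBLACAT3 points lie below 0 and the shControl points above it.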

How the data were processed

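Total RNA of 6 T24 libraries was sequenced with a strand-aware kit, per the labels' protocols. The deposited values were read as FPKM from their range and from the tools named, since the file header gives no unit. Per the submitters' processing notes the tools were cutadapt, HISAT2 2.1.0 and StringTie, and no source used here gives the build or annotation. Columns headed NC were read as shControl and SH as shBLACAT3. In every row the higher group mean was at least 0.501 FPKM, so lower genes were not analysed. Of 11081 rows 11026 matched a symbol, by gene ID in a name table or GENCODE 29, and rows of 3 shared symbols were summed.

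limma 3.58.1 (R 4.3.3) was fitted to log2(FPKM + 1) of the 10008 genes whose mean reached 1 FPKM, with a group term, a mean-variance trend, two-sided p, Benjamini-Hochberg adjustment over all of them and a threshold of 0.05, after a check on simulated data. The members and lists were chosen with earlier results of these data known. Named genes were, per list, up to 4 past the threshold with the largest change, or the 2 with the smallest p where none passed, besides the 5 nearest profiles and the 5 neighbours on each side. Others were chosen after their values were seen. A pair of list genes is not reported here and was left out of the lists. The letters of the NF-kB and interferon motifs were changed after a first search, which also gave 0 matches. Alternatives were a pseudocount of 0.1, no filter, median scaling, quantile normalization, no trend, the replicate number as a block, and each library left out in turn.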

Additional observations from a re-analysis of the deposited data

How the results depend on the processing

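The direction of SLPI and SERPINA1 held under every setting tried. Their groups lie so far apart that this outcome was fixed in advance, so it supports nothing. With a pseudocount of 0.1 their log2 differences were -6.28 and -4.22, a larger size that follows from the smaller constant. Leaving out 1 library at a time gave -3.87 to -3.49 for SLPI, -2.0 to -1.71 for SERPINA1, and a PI3 mean in shControl cells of 1.26 to 1.72 FPKM. Of all tested genes 681 fell and 257 rose; without 1 library the counts ran from 276 to 753 lower and from 81 to 590 higher, with 276, 317 and 331 lower and 81, 92 and 90 higher without shControl replicates 1, 2 and 3, and 112 and 590 higher without shBLACAT3 replicates 1 and 3. In the lists, the lower count then ran from 0 to 4 for other protease inhibitors (0 to 1 higher) and from 2 to 4 for SERPINA1 folding, export and disposal. With no filter on low values 5 serine proteases and 2 epithelial defence genes were lower, but the added genes are among the rows through their shControl values, so these counts support nothing. Of 22 list genes past the threshold that the rule named, 14 passed in every fit that left 1 library out. Of those named besides in these lists, OSMR and SOCS3 also did, while IRAK2, CEBPD and MCFD2 did not.

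The main fit did not use the replicate numbers as pairs. Deviations from the group means correlated at 0.1, 0.117 and 0.0895 for replicates 1, 2 and 3, and at -0.116 to 0.024 between unequal numbers. Each library correlated best with its own number, and whether the libraries were paired was not tested. With the replicate number as a block 451 genes were lower and 161 higher, the other protease inhibitors held 0 lower and 0 higher, and 3 genes of SERPINA1 folding, export and disposal were lower. Of 106 values under settings that keep every library, 97 stayed close to the main value, by a fold limit for counts and by the within-group SD for the members. Counts of 0 in both fits are among the 97. The members' differences cannot change with the replicate number as a block. Unknown depth limits what the values listed at 0 can show.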
